A study of Mus musculus with 16 samples.

Results

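Astrocytes clear transmitter, move water and ions and supply neurons with metabolites, and 9 genes of astrocyte transport and metabolism were followed in the spinal cord of mice with a human profilin1 transgene. The genes were picked by name for their function: the glutamate transporters Slc1a2 and Slc1a3, the glutamine synthetase gene Glul, the water channel Aqp4, the potassium channel Kcnj10, the sodium bicarbonate cotransporter Slc4a4, the gap junction genes Gja1 and Gjb6, and the folate enzyme Aldh1l1. All 9 were present among the 18167 genes of the deposited table, and no filter removed any of them.

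Glutamate released at synapses is cleared mainly by the astrocyte transporters, and glutamine synthetase turns it into glutamine that is handed back to neurons. Aquaporin channels and inward rectifier potassium channels sit together on the astrocyte endfeet around blood vessels, and gap junctions join neighbouring astrocytes so that potassium and metabolites can spread. Loss of glutamate transporter from astrocytes of the ventral spinal cord is a known feature of amyotrophic lateral sclerosis (ALS) and of its rodent models, and reactive astrocytes in such cords raise intermediate filament genes.

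RNA of the spinal cord was sequenced from 16 mice, 1 library per mouse, with poly(A)-selected strand-specific libraries. Mutant old (MO) mice, 5 in number, were C57BL/6N mice of the transgenic line Tg(Prnp-PFN1*G118V)838Kiaei/J, carried human PFN1 with the G118V change, had reached end stage (they could no longer right themselves in the set time), and were 198, 190, 245, 224 and 175 days old as mice MO1 to MO5. Mutant young (MY) mice were 3 presymptomatic animals of that line, 50 days old. Wild-type old (WO) mice were 5 C57BL/6N animals of the line Tg(Prnp-PFN1)850Kiaei/J, which carries unchanged human PFN1. WO1 to WO3 were 190 days old and WO4 and WO5 were 294 days old, older than any MO mouse. Wild-type young (WY) mice were 3 animals of the same control line, 50 days old. Every group thus carried a human PFN1 transgene under the prion promoter Prnp, which is active in many cell types, and no mouse without a transgene was sequenced in these groups. Each genotype was 1 transgenic line, so the G118V change and other differences between the lines cannot be told apart. Libraries were made in 2 batches: all MY and WY mice and the mice numbered 1 to 3 of MO and WO were in batch 1, and MO4, MO5, WO4 and WO5 were in batch 2. Values are log2(1 + FPKM), where FPKM counts fragments scaled to transcript length and library size, after the authors' correction for batch. How many fragments lie behind any single gene is unknown.

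Before the results, 2 libraries need description. The sources give all mice as male, yet MO5 had a log2(1 + FPKM) of 3.21 for Xist, the RNA of the inactive X chromosome, against at most 0.37 in any other mouse. The Y-linked gene Ddx3y was at 1.95 in MO5 and at 4.06 or above in all other mice. WO4 had a log2(1 + FPKM) of 5.36 for the myelin gene Mbp, whereas the other mice had 12.16 to 14.22. Fold changes of the 9 genes that passed the test against MO mice are also given without MO5 and, in WO vs. MO, without WO4, whereas ratios and r values include all mice.

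In every group Glul had the highest level of the 9 genes per transcript length and Aldh1l1 the lowest. Mean FPKM of Glul was 647 in WY mice (SD 28.7, n = 3), 727 in MY mice (SD 30.6, n = 3), 730.3 in WO mice (SD 42.0, n = 5) and 759 in MO mice (SD 140.1, n = 5). Slc1a2 followed with a mean FPKM of 232 in WY, 248 in MY, 225 in WO and 251 in MO mice. Below these came Kcnj10, Aqp4 and Gja1, whose order differed between groups. In WY mice mean FPKM was 198 for Kcnj10, 186 for Aqp4 and 152 for Gja1. In WO mice Aqp4 stood lowest of the 3, with a mean FPKM of 118.4 against 183 for Kcnj10 and 138 for Gja1. In MO mice Aqp4 stood highest of the 3, with a mean FPKM of 212 against 166 for Gja1 and 161 for Kcnj10. Slc4a4 and Gjb6 lay near each other at mean FPKM from 53.3 to 67.5, followed by Slc1a3 at 34.5 to 50.4 and Aldh1l1 at 24.9 to 40.9 over the 4 group means. Neighbours whose FPKM ranges over the mice of a group overlapped were Slc1a2 and Kcnj10, Kcnj10 and Aqp4, and Slc4a4 and Gjb6 in WY mice, Aqp4 and Gja1 in MY mice, and Gja1 and Aqp4 as well as Gjb6 and Slc4a4 in WO mice. In MO mice all neighbours from Aqp4 down overlapped except Kcnj10 and Gjb6. Of these pairs, the order of FPKM held in every single mouse for Slc1a2 over Kcnj10 and Kcnj10 over Aqp4 in WY mice, Gja1 over Aqp4 in WO mice, and Slc4a4 over Slc1a3 and Slc1a3 over Aldh1l1 in MO mice, and differed between mice for the others. By mean log2(1 + FPKM) over the 16 mice, the genes ranked from the 83.8th percentile of the table (Aldh1l1) to the 99.7th percentile (Glul).

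The genes lie on separate chromosomes except for Glul and Kcnj10, which are both on chromosome 1, at 153899944 to 153909723 and 172341210 to 172374085 of mouse build GRCm38. Aqp4 is on chromosome 18 (15389496 to 15410982), Slc1a3 on chromosome 15 (8634124 to 8710764), Slc1a2 on chromosome 2 (102658659 to 102790784) and Slc4a4 on chromosome 5 (88886818 to 89239653). Gja1 is on chromosome 10 (56377330 to 56402513), Gjb6 on chromosome 14 (57123303 to 57133611) and Aldh1l1 on chromosome 6 (90486427 to 90600203). All 9 are annotated as protein coding. Exons of Slc1a2 overlap with those of Gm13872 on the opposite strand, and exons of Glul with those of Teddm2 on the opposite strand and of the microRNA gene Mir8114 on the same strand.

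Each comparison was fitted with limma on its own groups over all genes, with a Benjamini-Hochberg adjusted p (FDR) at or below 0.05 as the test, and a gene was called differentially expressed where its fold change also reached 1.5. Between end-stage mutant mice and wild-type mice of the older group (WO vs. MO), which asks what separates the diseased cord from its control, Slc1a3, Aqp4, Gja1 and Aldh1l1 rose and Kcnj10 fell, so that 5 of the 9 genes passed the FDR against 27.9% of all genes. Of these, Aqp4 and Aldh1l1 reached 1.5-fold, 2 of 9 against 4.60% of all genes. In 3 of the 9 genes (Slc1a3, Aqp4 and Aldh1l1) the WO and MO mice did not overlap, against 19.9% of all genes with no overlap in either direction. MY vs. MO sets presymptomatic against end-stage mutant mice, which also differ in age, so age and disease stage cannot be told apart there. In MY vs. MO, Aqp4 and Aldh1l1 rose and Kcnj10 fell, 3 of 9 genes against 25.6% of all genes. Aldh1l1 was called at 1.5-fold, 1 of 9 genes against 4.90% of all genes, and 4 of 9 genes (Slc1a3, Aqp4, Kcnj10 and Aldh1l1) showed no overlap between MY and MO mice against 31.6% of all genes. The comparisons share the MO mice, so their calls are not independent of each other.

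With age in control mice (WY vs. WO) Aqp4 fell, 1 of 9 genes against 1.12% of all genes by the FDR alone, and 0.253% of all genes with the 1.5-fold minimum that Aqp4 also met. Glul, Aqp4 and Aldh1l1, 3 of the 9, had no overlap between WY and WO mice, against 9.67% of all genes. Between the genotypes at 50 days (WY vs. MY) limma called 0 of the 9 genes, and of all genes 0.00550% by the FDR alone and 0.00550% with the fold minimum. At an unadjusted p under 0.05 there were 4 of the 9, Slc1a3, Glul, Aqp4 and Gjb6, against 7.16% of all genes. No overlap between WY and MY mice was found for these 4 and Aldh1l1, 5 of 9 genes, against 13.7% of all genes. Whether age acted differently in the mutant line, as MO minus MY less WO minus WY, was tested with the 16 mice together. It was called for Aqp4 and Aldh1l1, 2 of 9 genes against 5.61% of all genes with the fold minimum and 17.7% by the FDR alone. Of all genes called in that test, 82.8% had a higher age effect in the mutant line, and 72.1% after quantile normalization. Median log2 fold changes of the 9 genes were 0.16 in WO vs. MO and 0.10 in MY vs. MO, where the medians of all genes were 0.00 in both, and −0.11 in WY vs. WO and 0.03 in WY vs. MY.

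**Figure D1:**
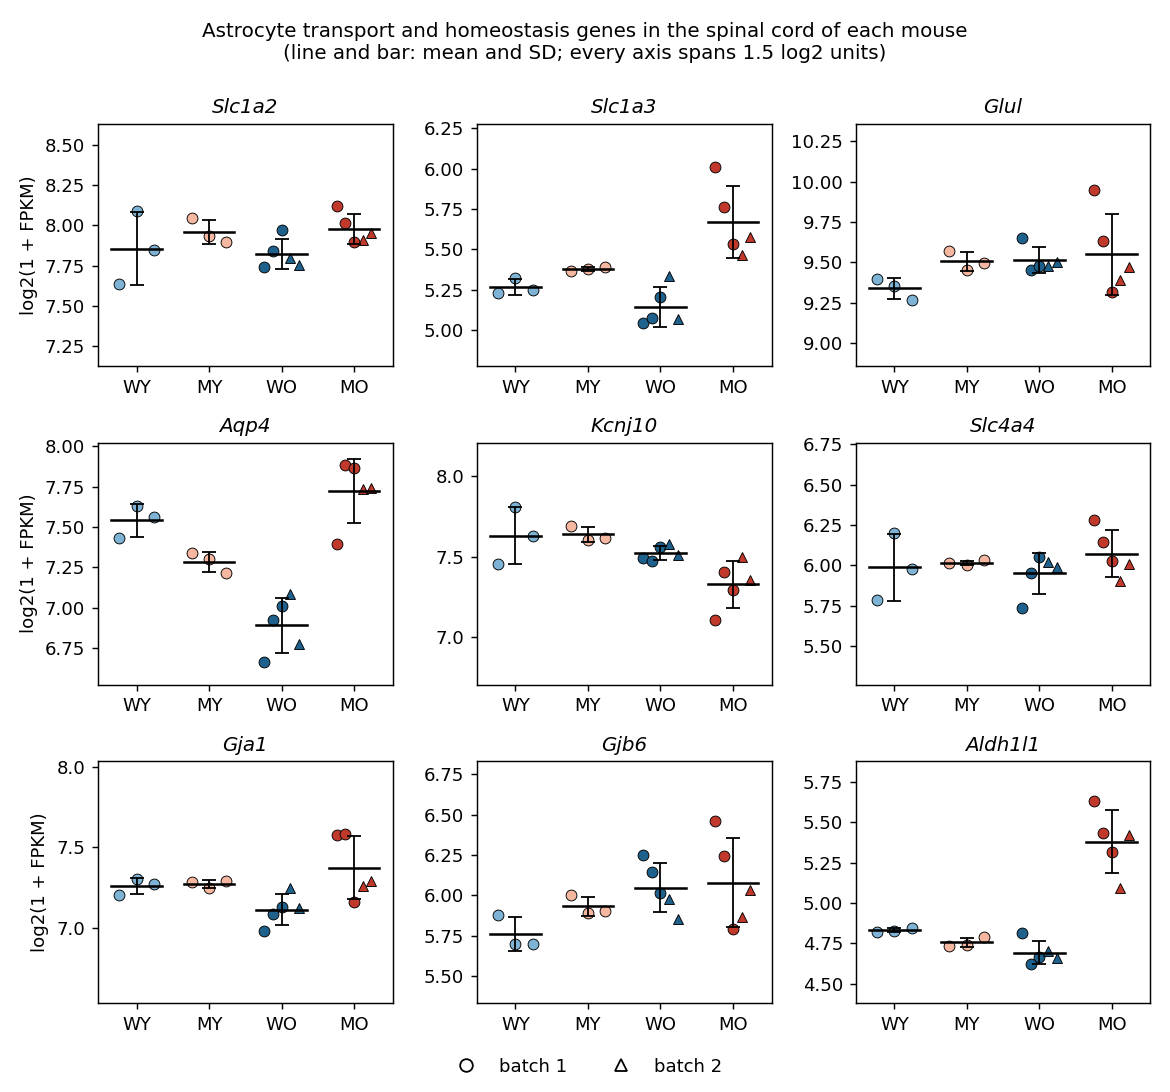
Level of each gene in each mouse as log2(1 + FPKM) (y axis, 1.5 log2 units in every panel) for the groups WY, MY, WO and MO (x axis). Points are mice (circles batch 1, triangles batch 2), lines are means and bars SD. All MO mice lie above all other mice for Slc1a3 and Aldh1l1 (7.58% of all genes do so), and Aqp4 is lowest in the WO mice.

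Of the glutamate genes among the 9, the transporter gene Slc1a3 was the one that passed the test, in WO vs. MO. Its log2(1 + FPKM) was 6.01, 5.76, 5.54, 5.47 and 5.58 in MO1 to MO5 and 5.04, 5.08, 5.20, 5.34 and 5.07 in WO1 to WO5. In young mice it was 5.36, 5.38 and 5.39 in MY1 to MY3 and 5.23, 5.32 and 5.25 in WY1 to WY3. Every MO mouse was above each of the 11 other mice, as was so for 2 of the 9 genes (Slc1a3 and Aldh1l1) and for 7.58% of all genes, with MO1 highest, and WO4 stood above the other WO mice. Slc1a3 rose in WO vs. MO with a log2 fold change of 0.53 (SE 0.10, limma FDR 0.00337), a 1.44-fold higher level that did not reach the 1.5-fold minimum. The rise did not pass limma's treat, which tests against a minimum of 1.2-fold (limma treat FDR 0.201). Within batch 1 the log2 fold change was 0.66 (limma FDR 0.0161), and the 2 mice of each group in batch 2 differed by 0.32. Without MO5 it was 0.55 (limma FDR 0.00628) and without WO4 it was 0.57 (limma FDR 0.00366). In MY vs. MO the log2 fold change was 0.29 (SE 0.12) with a limma FDR of 0.103. It did not pass within batch 1 (log2 fold change 0.39, limma FDR 0.0514). The comparison passed with batch as a term of the fit (log2 fold change 0.39, limma FDR 0.0373) and with all 4 groups in 1 fit (limma FDR 0.0482). All MY mice were in batch 1, so with batch as a term the fold change is that of batch 1 and not a separate estimate. The difference of age effects for Slc1a3 was 0.41 on the log2 scale (limma FDR 0.0604), and it passed within batch 1 (0.55, limma FDR 0.0261) and without MO1 (0.33, limma FDR 0.0406), without MO4 (0.46, limma FDR 0.0314) or without WO4 (0.46, limma FDR 0.0388). In these whole cord samples a change in the number of astrocytes, in RNA per astrocyte or in RNA from other cell types cannot be told apart. This holds here and for every gene that follows.

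Slc1a2, the main glutamate transporter of forebrain and spinal cord, did not pass the test in any comparison. Log2(1 + FPKM) ranged from 7.89 to 8.12 in MO mice, 7.74 to 7.97 in WO mice, 7.90 to 8.04 in MY mice and 7.64 to 8.09 in WY mice, and these ranges overlapped. In WO vs. MO the log2 fold change of Slc1a2 was 0.16 with a 95% confidence interval from 0.03 to 0.28 (limma FDR 0.0633), and without WO3, the highest WO mouse, it was 0.19 with a limma FDR of 0.0224. In MY vs. MO the interval of its log2 fold change ran from −0.12 to 0.16. After quantile normalization that fold change was −0.08, so its sign depended on the scaling. Mean FPKM of Slc1a2 was 5.05 times that of Slc1a3 in MO mice (SD 0.460, n = 5), 6.57 times in WO mice (SD 0.561, n = 5), 6.11 times in MY mice (SD 0.381, n = 3) and 6.18 times in WY mice (SD 0.763, n = 3), each taken as the mean of the ratios in single mice. Ratios of MO mice ran from 4.36 to 5.54 and those of the WO mice from 5.61 to 6.98. These ratios were formed after the values had been seen and were not tested.

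Glul, which makes glutamine from glutamate, also passed in no comparison. In MO1 to MO5 its log2(1 + FPKM) was 9.95, 9.64, 9.31, 9.39 and 9.47, a wider spread than in WO mice, where it ran from 9.45 to 9.65. Log2 fold changes of Glul were 0.04 in WO vs. MO (limma FDR 0.834) and 0.04 in MY vs. MO (limma FDR 0.852), and both turned negative after quantile normalization and without MO1. Its levels in WY mice, 9.27 to 9.40, lay below those of all MY and WO mice, with log2 fold changes of 0.17 in WY vs. MY (limma FDR 0.648) and 0.17 in WY vs. WO (limma FDR 0.221).

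Around these genes, 20 of 21 listed genes of glutamate, GABA and glycine handling were measured. In WO vs. MO 3 of the 20 rose (Slc1a4, Slc1a5 and Slc38a1), 7 fell and 10 did not pass, and in MY vs. MO 3 rose (Slc1a4, Slc1a5 and Slc25a18), 6 fell and 11 did not pass. Of all 18167 genes, 2730 rose and 2345 fell in WO vs. MO, and 2377 rose and 2269 fell in MY vs. MO. Slc7a10, a transporter of D-serine and glycine in astrocytes, had the largest fall among the called genes of this list in WO vs. MO, from a mean log2(1 + FPKM) of 5.79 to 5.03 (log2 fold change −0.75, SE 0.14, limma FDR 0.00304). In MY vs. MO its log2 fold change was −0.61 (SE 0.18, limma FDR 0.0364), which did not pass without MO5 (−0.63, limma FDR 0.0567). Grm3, the metabotropic glutamate receptor of astrocytes, fell by 0.65 on the log2 scale in MY vs. MO (SE 0.09, limma FDR 0.00191), from a mean of 3.70 to 3.05. The GABA and glycine transporter genes Slc6a11 and Slc6a9 fell as well in both comparisons, with log2 fold changes of −0.51 and −0.49 in WO vs. MO.

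Aqp4, the water channel of the endfeet, had the widest movement of the 9 genes. Its log2(1 + FPKM) was 7.40, 7.88, 7.87, 7.74 and 7.74 in MO1 to MO5 and 6.66, 6.93, 7.01, 7.08 and 6.77 in WO1 to WO5. In young mice it was 7.34, 7.30 and 7.22 in MY1 to MY3 and 7.43, 7.63 and 7.56 in WY1 to WY3. The WO mice lay below every other mouse. MO mice lay above all MY mice, while MO1, the lowest of its group, was below every WY mouse and the other 4 were above every WY mouse. Aqp4 rose in WO vs. MO with a log2 fold change of 0.83 (SE 0.11, limma FDR 0.000244), a 1.78-fold higher level. The log2 fold change was 0.85 within batch 1 (limma FDR 0.0155), 0.81 in batch 2, and 0.83 without MO5 and 0.88 without WO4.

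Against MY mice the MO mice had 1.36 times the level of 1 + FPKM of Aqp4 (log2 fold change 0.44, SE 0.11, limma FDR 0.0173). Without MO5 the log2 fold change was 0.43 (limma FDR 0.0346). The rise did not pass within batch 1 (log2 fold change 0.43, limma FDR 0.0618), nor without MY1 (0.47, limma FDR 0.0517), MY2 (0.45, limma FDR 0.0546) or MY3 (0.41, limma FDR 0.0739). In control mice Aqp4 fell with age by 0.65 on the log2 scale (SE 0.10, limma FDR 0.0281). All 5 WO mice were below all 3 WY mice, but the FDR rose above the threshold, to between 0.0594 and 0.130, when WO2, WO3, WO5, WY1, WY2 or WY3 was left out, with log2 fold changes from −0.71 to −0.61. The fall also did not pass after quantile normalization (log2 fold change −0.63, limma FDR 0.0616) or with log2(FPKM + 0.1) (−0.66, limma FDR 0.0515). The age effects of the genotypes thus had opposite signs, and their difference for Aqp4 was 1.09 on the log2 scale (SE 0.15, limma FDR 0.000265). It was 1.11 within batch 1 (limma FDR 0.00303), 1.09 without MO5 and 1.14 without WO4. The distance between WO and MO mice in Aqp4 thus includes a lower level in WO than in young mice, and MO mice were not tested against WY mice.

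Kcnj10, an inward rectifier potassium channel gene, went the other way. Its log2(1 + FPKM) was 7.11, 7.40, 7.29, 7.49 and 7.35 in MO1 to MO5 and 7.69, 7.60 and 7.62 in MY1 to MY3. The WO mice had 7.49, 7.47, 7.56, 7.58 and 7.51 and the WY mice 7.45, 7.81 and 7.63. All MO mice lay below all MY mice, MO1 lowest, whereas MO4 overlapped the WO mice and WY1 lay among the MO mice. Kcnj10 fell by 0.31 on the log2 scale in MY vs. MO (SE 0.08, limma FDR 0.0252), and its log2 fold change was −0.37 within batch 1 (limma FDR 0.0194) and −0.31 without MO5 (limma FDR 0.0432). The test was not passed without MO3 (limma FDR 0.0545), MY1 (limma FDR 0.103), MY2 (limma FDR 0.0650) or MY3 (limma FDR 0.0731). The difference of age effects for Kcnj10 was −0.20 on the log2 scale and did not pass (limma FDR 0.253). In WO vs. MO the fall of 0.19 on the log2 scale (log2 fold change −0.19, SE 0.06) had a limma FDR of 0.0485. That call was lost within batch 1 (log2 fold change −0.24, limma FDR 0.114) and when any mouse other than MO4 was left out, with FDR from 0.0548 to 0.103. It passed with batch as a term (limma FDR 0.0421) and after quantile normalization (limma FDR 0.00924), but not with all 4 groups in 1 fit (limma FDR 0.0506), an intensity trend (limma FDR 0.0540) or log2(FPKM + 0.1) (limma FDR 0.0712). Without MO5 the log2 fold change was −0.20 and without WO4 it was −0.18.

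The ratio of Aqp4 to Kcnj10 in FPKM, formed after the values had been seen and not tested, placed the end-stage mutant mice apart from all others. It was 1.32 in MO mice (SD 0.125, n = 5, from 1.18 to 1.49), 0.646 in WO mice (SD 0.0636, n = 5), 0.782 in MY mice (SD 0.0256, n = 3) and 0.943 in WY mice (SD 0.0512, n = 3). The highest ratio among the other mice was 0.986, in a WY mouse.

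Slc4a4, which moves sodium and bicarbonate across the astrocyte membrane, did not pass in any comparison. Its log2(1 + FPKM) lay between 5.74 and 6.28 over the 16 mice, and the ranges of all groups overlapped. The log2 fold change was 0.12 in WO vs. MO (95% confidence interval −0.05 to 0.30) and 0.06 in MY vs. MO (−0.12 to 0.24). By the FDR, 27.9% of all genes passed in WO vs. MO and 25.6% in MY vs. MO, in either direction. Among 21 other genes of water, potassium and pH handling, all measured, 8 rose and 4 fell in WO vs. MO, and 6 rose and 2 fell in MY vs. MO. Fxyd1, a regulator of the sodium pump, rose most, from a mean log2(1 + FPKM) of 6.47 in WO and 6.61 in MY mice to 7.60 in MO mice. Its log2 fold changes were 1.13 (SE 0.07, limma FDR 1.46e-05) in WO vs. MO and 0.99 (SE 0.07, limma FDR 0.000212) in MY vs. MO. Slc16a3, a lactate transporter that is not specific to astrocytes, rose with log2 fold changes of 0.82 (limma FDR 0.00121) and 0.79 (limma FDR 0.00481). Mlc1, a membrane protein of the endfeet, also rose, by log2 fold changes of 0.52 in WO vs. MO and 0.51 in MY vs. MO. The chloride cotransporter gene Slc12a2 fell by 0.39 and 0.51 on the log2 scale in these comparisons.

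Of the gap junction genes, Gja1 was higher in MO than in WO mice and Gjb6 was not separated. Log2(1 + FPKM) of Gja1 was 7.58, 7.58, 7.16, 7.26 and 7.29 in MO1 to MO5 and 6.98, 7.08, 7.13, 7.24 and 7.12 in WO1 to WO5. It was 7.28, 7.24 and 7.29 in MY1 to MY3 and 7.21, 7.31 and 7.27 in WY1 to WY3. MO1 and MO2 lay above all other mice, and MO3, MO4 and MO5 lay within the range of the other groups. The rise in WO vs. MO had a log2 fold change of 0.26 (SE 0.09, limma FDR 0.0491), close to the threshold. The rise passed more clearly with all 4 groups in 1 fit (limma FDR 0.0177). It did not pass with batch as a term (limma FDR 0.0629), after quantile normalization (0.22, limma FDR 0.135) or with log2(FPKM + 0.1) (limma FDR 0.0645). Within batch 1 the rise did not pass either (log2 fold change 0.37, limma FDR 0.0929), and in batch 2 it was 0.09. The rise also failed without MO1, MO2, MO5, WO1, WO2, WO3 or WO5, with limma FDR from 0.0582 to 0.107. Without MO5 the log2 fold change was 0.28 (limma FDR 0.0582) and without WO4 it was 0.29 (limma FDR 0.0470). In MY vs. MO the log2 fold change of Gja1 was 0.10 (limma FDR 0.538).

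Gjb6 had log2(1 + FPKM) of 6.46, 6.24, 5.79, 5.86 and 6.03 in MO1 to MO5 and 6.25, 6.14, 6.01, 5.98 and 5.85 in WO1 to WO5. The range of the MO mice was wider and held that of the WO mice, and the log2 fold change of 0.03 (limma FDR 0.897) turned negative without MO1, MO2 or WO5. In WY vs. WO its log2 fold change was 0.29 (limma FDR 0.205). The FPKM of Gja1 was 2.48 times that of Gjb6 in MO mice (n = 5, from 2.19 to 2.66), 2.13 times in WO mice (n = 5, from 1.67 to 2.44), 2.56 times in MY mice (n = 3, from 2.46 to 2.65) and 2.88 times in WY mice (n = 3, from 2.53 to 3.09), with overlap between MO and WO mice. The FDR was passed by 27.9% of all genes in WO vs. MO and by 25.6% in MY vs. MO. Of 11 other connexin, pannexin and junction genes, 1 rose (Gja5) and 3 fell in WO vs. MO, and 1 rose (Gjc1) and 3 fell in MY vs. MO. The genes that fell were Gjc3, Gjd2 and Panx2 in both. Gjc3, a connexin of oligodendrocytes, was the called gene, with log2 fold changes of −0.60 (SE 0.11, limma FDR 0.00246) in WO vs. MO and −0.90 (SE 0.12, limma FDR 0.00137) in MY vs. MO. Without WO4 its log2 fold change in WO vs. MO was −0.57 (limma FDR 0.00771), below the 1.5-fold minimum.

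Aldh1l1, a folate enzyme widely used as a marker of astrocytes, was called in both comparisons with MO mice. Its log2(1 + FPKM) was 5.63, 5.43, 5.31, 5.10 and 5.42 in MO1 to MO5 and 4.81, 4.62, 4.66, 4.70 and 4.66 in WO1 to WO5. In young mice it was 4.74, 4.74 and 4.79 in MY1 to MY3 and 4.82, 4.83 and 4.85 in WY1 to WY3. The lowest MO mouse, MO4, was above the highest of all other mice, which had 4.85. In WO vs. MO the log2 fold change was 0.69 (SE 0.09, limma FDR 0.000230), a 1.61-fold higher level, with 0.76 within batch 1, 0.58 in batch 2, 0.68 without MO5 (limma FDR 0.000888) and 0.69 without WO4 (limma FDR 0.000897). In MY vs. MO the log2 fold change of Aldh1l1 was 0.62 (SE 0.10, limma FDR 0.00352), a 1.54-fold higher level, and without MO5 it was 0.61 (limma FDR 0.00891). Without MO1 it was 0.56, which passed the FDR (0.00277 in limma) but not the 1.5-fold minimum. The difference of age effects was 0.76 on the log2 scale (SE 0.12, limma FDR 0.000592), 0.84 within batch 1, 0.75 without MO5 and 0.77 without WO4. Exons of Aldh1l1 likewise overlap in the annotation with those of 2 noncoding genes, Gm45901 on the same strand and Gm15756 on the opposite strand, and how fragments in such overlaps were assigned is not given in the sources used here.

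**Figure D2:**
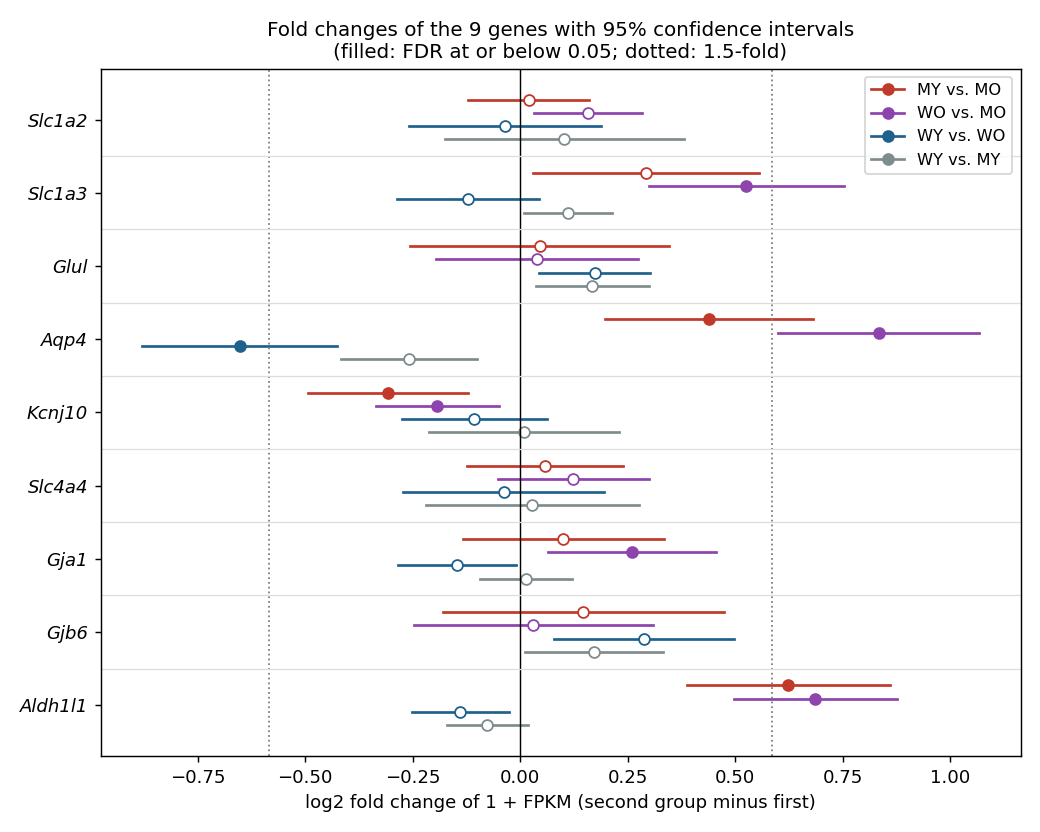
Log2 fold change of 1 + FPKM (x axis, second group minus first) with its 95% confidence interval for each gene (y axis) in each comparison of 2 groups, by colour. Filled points have an FDR at or below 0.05 and dotted lines mark 1.5-fold. Aqp4 lies on opposite sides of 0 in WY vs. WO (−0.65) and WO vs. MO (0.83), and no point of WY vs. MY is filled.

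Individual mice did not keep the same place in all genes. MO1 was the highest MO mouse in 6 genes (Slc1a2, Slc1a3, Glul, Slc4a4, Gjb6 and Aldh1l1) and the lowest in Aqp4 and Kcnj10. MO3 was the lowest MO mouse in 4 genes, Slc1a2, Glul, Gja1 and Gjb6. Among WY mice, WY1 was lowest in 7 genes and WY2 highest in 6. MO5 was neither the highest nor the lowest of its group in any of the 9 genes, and WO4 was the highest WO mouse in Slc1a3, Aqp4, Kcnj10 and Gja1.

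The 9 genes also differed in the genes they resembled, by Pearson's r over the 16 mice among 13529 genes whose mean level was 1 or more on the log2(1 + FPKM) scale. Such r values include the differences between groups, and the mice share library batches. Aldh1l1 was most like Apod (r = 0.984) and Cd109 (r = 0.982), and Slc1a3 most like Eif4b (r = 0.976) and Slc7a2 (r = 0.973). Aqp4 was most like Tnc (r = 0.936) and Tnfrsf19 (r = 0.935). Mean log2(1 + FPKM) of Tnc, an extracellular matrix gene, was 1.35 in WY, 1.22 in MY, 0.83 in WO and 1.48 in MO mice, the same order of groups as for Aqp4. Kcnj10 was most like Ermp1 (r = 0.943) and Dgkk (r = 0.940), and its highest r with any other of the 9 genes was −0.04. Glul was most like Mybpc1 (r = 0.938) and Gjb6 (r = 0.905), and Gjb6 most like Ranbp9 (r = 0.950) and Mettl7a1 (r = 0.927). Slc1a2 was most like Prex2 (r = 0.932) and Rlim (r = 0.924), Slc4a4 most like Ntrk2 (r = 0.905) and Zc3h12c (r = 0.894), and Gja1 most like Tab2 (r = 0.886) and Slc1a3 (r = 0.881).

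Other lists of astrocyte genes were set beside the transport genes. These lists do not stand for the whole cell type, and the part of other cell types in their levels was not tested. All 15 genes of a reactive astrocyte list rose in WO vs. MO and in MY vs. MO, and 13 of them were called in each, with median log2 fold changes of 1.64 and 1.66. The largest were Timp1, an inhibitor of metalloproteases (3.67 and 3.18), Serpina3n, a secreted protease inhibitor (3.32 and 3.09), and the filament gene Vim (2.59 and 2.49), and Gfap had 1.60 and 1.26. Of 60 astrocyte genes that the study used, taken by it from a published human list, 7 are among the 9 genes described here (all but Glul and Kcnj10). Of the other 53, 25 rose and 7 fell in WO vs. MO with a median log2 fold change of 0.25, and 24 rose and 3 fell in MY vs. MO with a median of 0.22. Cyp4f18, a fatty acid hydroxylase gene (1.64 and 1.58), the urea transporter gene Slc14a1 (1.13 and 1.02) and Agt, the angiotensinogen gene (1.06 and 0.97), had the largest called log2 fold changes of that list in WO vs. MO and MY vs. MO. Of 13 regulators of astrocyte identity, 4 rose (Sox9, Rfx4, Notch2 and Id4) and 1 fell (Nfix) in WO vs. MO, and 3 rose (Sox9, Rfx4 and Notch2) in MY vs. MO. By the FDR, 27.9% of all genes passed in WO vs. MO and 25.6% in MY vs. MO, in either direction. Sox9 was called in WO vs. MO, with a log2 fold change of 0.69 (SE 0.07, limma FDR 5.15e-05).

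Markers of the cell types in the cord were examined beside these results. The 9 astrocyte markers (Gfap, Aldoc, S100b, Sox9, Acsbg1, Fgfr3, Slc39a12, Mlc1 and Ndrg2) were all above 0 in every mouse, and their summed FPKM was 4485, 5368, 4898, 4459 and 4470.1 in MO1 to MO5 against 3075, 2839.9, 3019, 3076 and 2869 in WO1 to WO5. It ran from 3125 to 3219 in MY mice and from 3190 to 3541 in WY mice. Gfap was the most abundant of them by the mean over all 16 mice, the measure by which the leading gene of every list is named, but in WO1 and WO5 it was below Aldoc. Gfap fell with age in control mice (WY vs. WO, log2 fold change −0.54, limma FDR 0.0345), as did Cd44 (−0.67) and Cxcl10 (−0.46). They were 3 of the 15 reactive astrocyte genes, against 1.12% of all genes that passed the FDR in either direction. These falls were not refitted with mice left out. Of the 9 markers 6 rose in WO vs. MO and in MY vs. MO (Gfap, Aldoc, Sox9, Acsbg1, Mlc1 and Ndrg2) and 3 did not pass. Of these 3, S100b had negative log2 fold changes, −0.21 in WO vs. MO (limma FDR 0.102) and −0.28 in MY vs. MO (limma FDR 0.1003), and Fgfr3 and Slc39a12 had 0.05 and 0.09 in WO vs. MO. Without Gfap the sums were 2527, 2656, 2459.7, 2552 and 2398 in MO mice and between 2136 and 2352 in WO mice, so the groups still did not overlap but lay closer. Microglial markers rose in 9 of 10 genes in both comparisons with MO mice, with C1qa most abundant. Their summed FPKM was 661, 981, 1189.7, 626 and 698 in MO1 to MO5, and between 127.1 and 211 in every other mouse.

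Of 10 oligodendrocyte markers, 4 fell in MY vs. MO, while 2 fell and 1 rose in WO vs. MO and 6 fell in WY vs. WO. Their summed FPKM, led by Mbp, was 7334, 7921, 8002, 22553 and 21911 in MO1 to MO5 and 10470.0, 9742, 9788, 5544 and 24173 in WO1 to WO5, so that MO4, MO5 and WO5 were the highest and WO4 the lowest of all mice. It ran from 14452 to 16907 in young mice. Without Mbp the sums ran from 2763 to 4308 in the old mice of batch 1 and from 3850.5 to 5504 in those of batch 2. Of 4 oligodendrocyte precursor markers, led by Gpr17, 2 fell in MY vs. MO and in WY vs. WO and 0 passed in WO vs. MO, with summed FPKM from 22.8 to 35.7 in MO, 19.98 to 25.1 in WO, 35.6 to 37.0 in MY and 33.9 to 37.6 in WY mice. Of 6 motor neuron markers, led by Prph, 4 fell in each comparison with MO mice, and their summed FPKM had a mean of 102 in MO and 129 in WO mice, with every MO mouse below every WO mouse. Of 8 neuronal markers, led by Snap25, 5 fell in each, with summed FPKM from 2320.2 to 2767 in MO and from 3258 to 3644 in WO mice. Of 6 endothelial markers, led by Cldn5, 5 fell in WO vs. MO and 0 passed in MY vs. MO, with summed FPKM from 43.6 to 51.1 in MO and from 48.9 to 71.0 in WO mice. Of 5 ependymal markers Rarres2, the most abundant, rose in both, and the list summed to between 38.4 and 47.3 in MO and between 32.8 and 47.4 in WO mice.

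Markers of cells from outside the cord were examined too. Schwann cell markers summed to at most 0.811 FPKM in any mouse, with Pmp2 leading by the mean over all mice but not in every mouse, and muscle markers to at most 2.41 FPKM, with Acta1 most abundant and Myh4 at or below 0 in at least 1 mouse. Of these lists Pmp2 fell in MY vs. MO and Acta1 in WO vs. MO. Meningeal fibroblast markers, led by Dcn, summed to between 13.4 and 19.2 FPKM, and 0 of 5 passed in any comparison. Blood markers, led by Hba-a1, summed to 11.7 FPKM in MO1 and to between 43.3 and 96.8 in all other mice, and 0 of the 4 that were measured passed in any comparison. The part of these other cell types in the levels of the 9 astrocyte genes was not tested.

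Several list counts depended on MO5 or WO4. Without MO5, in MY vs. MO, 1 gene of the glutamate, GABA and glycine list rose and 5 fell, 6 rose and 3 fell of the water, potassium and pH list, and 22 rose and 2 fell of the 53 genes from the study's list. These numbers in WO vs. MO were 2 and 7, 7 and 4, and 25 and 6 without MO5, and 2 and 7, 7 and 4, and 24 and 5 without WO4. None of the 11 other connexin, pannexin and junction genes rose in WO vs. MO with MO5 or WO4 left out, and 3 fell without MO5 and 4 without WO4. Of the other cell types, 6 oligodendrocyte markers and 3 motor neuron markers fell in MY vs. MO without MO5. With MO5 or WO4 left out of WO vs. MO, 1 oligodendrocyte marker fell in each case, 6 neuronal markers fell without MO5, 4 endothelial markers fell without MO5 and 6 without WO4, and Acta1 did not pass in either case. Counts of reactive astrocyte genes, regulators and microglial markers were the same with MO5 or WO4 left out.

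Promoter sequence was matched for 8 of the 9, all but Aqp4, in RefSeq on build GRCm38.p6. The 250 bases before the start are shown for 3 genes that passed the test in WO vs. MO and whose window holds no annotated exon: Slc1a3 and Gja1, which rose, and Kcnj10, which fell. Capitals mark matches on either strand to any of 4 motifs, the STAT motif TTCNNNGAA, the AP-1 motif TGANTCA, the NFI motif TTGGCA and the SOX motif AACAAT.
Slc1a3: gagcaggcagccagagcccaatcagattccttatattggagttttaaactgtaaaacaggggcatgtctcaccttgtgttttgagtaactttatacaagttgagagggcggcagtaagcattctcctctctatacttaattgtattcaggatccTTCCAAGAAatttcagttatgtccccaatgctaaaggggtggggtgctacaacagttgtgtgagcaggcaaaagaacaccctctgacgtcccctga
Gja1: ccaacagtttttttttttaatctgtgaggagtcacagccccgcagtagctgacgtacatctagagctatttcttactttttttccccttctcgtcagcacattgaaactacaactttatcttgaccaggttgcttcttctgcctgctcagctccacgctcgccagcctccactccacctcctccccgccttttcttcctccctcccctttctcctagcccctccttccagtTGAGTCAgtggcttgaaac
Kcnj10: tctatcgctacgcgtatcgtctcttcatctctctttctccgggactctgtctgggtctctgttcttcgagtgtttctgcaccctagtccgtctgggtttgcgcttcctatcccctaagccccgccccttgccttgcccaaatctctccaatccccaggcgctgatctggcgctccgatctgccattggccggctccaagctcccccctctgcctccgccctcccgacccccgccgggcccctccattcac

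The window of Slc1a3 is chr15:8710808-8711057 on the minus strand, that of Gja1 is chr10:56377050-56377299 on the plus strand and that of Kcnj10 is chr1:172340960-172341209 on the plus strand. Slc1a3 holds the STAT letters starting 96 bases before the start, and Gja1 holds the AP-1 letters starting 19 bases before it. Kcnj10 holds none of the 4 motifs in this window. Over 32851 promoters of the same length, 7.02% held the STAT motif, 6.75% the AP-1 motif, 12.3% the NFI motif and 9.42% the SOX motif. The share of G and C was 44.8% in the window of Slc1a3, 50.0% in that of Gja1 and 62.0% in that of Kcnj10. Such a match is a description of the letters and was not tested for binding.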

How the data were processed

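The mouse was the unit of analysis, with 1 library each and its own animal tag in the labels. Log2 values were taken from the deposited table without change: according to the paper's methods and the submitters' processing notes, the authors trimmed reads (Trimmomatic), placed them on mm10 (TopHat) and obtained FPKM (Cufflinks), genes at 0 FPKM in 8 or more mice were dropped, log2 was taken after adding 1, and batch was adjusted with ComBat. The covariates given to ComBat and the gene annotation are not given in the sources used here. Adjusted values can fall below 0, as 915 did, and young mice were all in batch 1. How the adjustment treated differences between young and old mice is thus unknown, which bears on MY vs. MO, WY vs. WO and the difference of age effects. The fits took the adjusted values as given, so the uncertainty of the adjustment is not part of their FDR. No column was left unused.

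limma 3.58.1 under R 4.3.3 was applied to each pair of groups (lmFit, eBayes, two-sided) on 18167 genes, the group named later minus the other, and the age effect by genotype on all 16 mice. Alternatives were batch 1 only, batch as a term, a mean of at least 1, log2(FPKM + 0.1), quantile normalization, all groups in 1 fit, an intensity trend, limma's treat at 1.2-fold, mouse number as a block, and leaving out each mouse. The fits were tested on simulated data. FPKM was recovered as 2 to the power of the value, minus 1.

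Named genes were the 9 genes in every comparison, from each list at most 3 called genes per comparison with MO by size of the log2 fold change, and for each of the 9 the 2 genes of highest r. Lists were glutamate, GABA and glycine handling, water, potassium and pH handling, connexins, regulators of identity, reactive astrocytes, astrocyte markers used by the study (from a published human list) and markers of cell types. Some genes stand in several lists, among them Mlc1, Gfap, Sox9, Fgfr3 and Slc7a10, so the counts of the lists are not independent. Other genes named in small counts, or beside them (Slc6a9, Slc6a11, Mlc1, Slc12a2 and Gfap), were chosen after their values were seen, as were the motifs. The genes and lists were chosen with earlier results of these data known. Positions came from GENCODE M21. Python 3.11.15, NumPy 2.4.6, pandas 2.3.3 and matplotlib 3.10.9 were used.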

Additional observations from a re-analysis of the deposited data

Results flagged for a closer look

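In groups of 5 mice, a mouse was set apart where its gap to the nearest other mouse, divided by the range of the group, was above 0.71, which chance does in about 1 in 20 groups; 42 groups were examined, so about 2 are set apart by chance alone, and 2 were found. Glul in WO1 was at 9.65 log2(1 + FPKM), against 9.50 in the next WO mouse. Cyp4f18 in MO4 was at 1.35, against 1.99 in the next MO mouse. The age effect differed between genotypes for Aqp4, by 1.09 on the log2 scale (limma FDR 0.000265), and for Aldh1l1, by 0.76 (limma FDR 0.000592), both higher in the mutant mice. The causes of these values were not tested.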

How the results depend on the processing

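Of 378 fold changes refitted and tested under other settings of the processing, 349 kept their direction and their side of the threshold, as did 382 of 432 with a mouse left out. Several settings (a minimum mean, all groups in 1 fit, an intensity trend and treat) leave the log2 fold change as it was, so direction could not change there. Fold changes that had not passed also stay so under a stricter test such as treat. These counts are therefore not a measure of how firm the results are. Quantile normalization reversed the log2 fold changes of Slc1a2 in MY vs. MO (−0.079) and in the difference of age effects (−0.051), and of Glul in MY vs. MO (−0.15) and WO vs. MO (−0.14). In the mice of batch 2 alone, WO vs. MO was −0.057 for Glul and −0.0500 for Slc4a4. With a mouse left out, log2 fold changes that crossed 0 ranged in MY vs. MO from −0.016 to 0.062 (Slc1a2) and from −0.054 to 0.10 (Glul), and in WO vs. MO from −0.059 to 0.099 (Glul) and from −0.065 to 0.10 (Gjb6). In WY vs. WO they ranged from −0.14 to 0.080 (Slc1a2) and from −0.14 to 0.068 (Slc4a4), and in WY vs. MY from −0.079 to 0.097 (Kcnj10), −0.0070 to 0.22 (Slc1a2), −0.073 to 0.13 (Slc4a4) and −0.015 to 0.036 (Gja1). For the difference of age effects they were −0.060 to 0.16 (Slc1a2) and −0.011 to 0.20 (Slc4a4). The count of genes called in MY vs. MO was 0 with treat and 0 to 1 with a mouse left out, and by the FDR alone 1 to 3. With treat, Slc1a3, Kcnj10 and Gja1 did not pass in WO vs. MO, nor did Aqp4, Kcnj10 and Aldh1l1 in MY vs. MO. In WO vs. MO the count by the FDR alone was 3 in batch 1, 3 with log2(FPKM + 0.1), 3 with the replicate block, and 3 to 5 with a mouse left out. In WY vs. WO both counts were 0 with log2(FPKM + 0.1), 0 after quantile normalization, 0 with the replicate block and 0 to 1 with a mouse left out, and the called count was 0 with treat. Same-numbered mice did not deviate together throughout (r from −0.23 to 0.10 in WO vs. MO, 0.09 to 0.20 in MY vs. MO, −0.14 to 0.41 in WY vs. WO and −0.22 to −0.02 in WY vs. MY), so the replicate number was not taken as a pairing. With that block the limma FDR was 0.0827 for Aqp4 and 0.0632 for Slc1a3 in MY vs. MO, 0.0589 for Kcnj10 and 0.115 for Gja1 in WO vs. MO, and 0.0517 for Aqp4 in WY vs. WO. The cause of each change was not tested. With 3 to 5 mice a group and no counts of fragments, precision rests on the spread between mice, and changes well under 1.5-fold may be missed.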
